A study of Mus musculus with 4 samples.

Results

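The tumour necrosis factor (TNF) superfamily was followed through regulatory T cells as a set of 39 genes, comprising 14 ligands, 19 receptors and the 6 TNF receptor-associated factors (TRAFs) Traf1 to Traf6. They were found by symbol in tables that list 50600 genes, and each of the 39 matched 1 row. All 39 are protein coding. The cells were mouse primary regulatory T cells of strain C57BL/6NJ, and 4 biosamples gave 1 library each, all in a single group without a comparison group. The labels share 1 donor record across the biosamples, give age and developmental stage as unknown and sex as not collected, and link a protocol for CD4+ T cell differentiation. They name no transgene, and they do not say whether animals were pooled or whether the biosamples came from separate animals or cultures. P-values therefore measure only the spread between these libraries, which may be technical, although sex-linked transcripts also differed between them, as given below. The assay label reads total RNA while the linked library protocol is named for polyA RNA, and which was selected is not settled here. The names of the aligned files carry the words activated and 48h, which are not part of the labels.

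Ligands of this superfamily are mostly trimers held in the membrane or released from it, and they signal by clustering their receptors. One class of receptors carries a cytoplasmic death domain that recruits adaptors such as TRADD and FADD, while the other binds TRAF proteins directly. TRAFs link receptors to kinases and ubiquitin ligases that turn on NF-kappaB and JNK. In regulatory T cells the receptors TNFR2, OX40, GITR and 4-1BB are known as costimulatory receptors that support expansion and survival.

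Each library held 43821767 to 73819468 counted fragments, and the 39 genes took between 0.449% and 0.454% of them. Levels are in TPM, transcripts scaled to a fixed library total,, computed from counts and summed exon length so that genes can be compared within a library, and ± marks the SD of the 4 libraries (n = 4). The regulatory T cell markers Foxp3, Il2ra, Ctla4, Ikzf2 and Ikzf4 were all at 1 TPM or more in every library and summed to 2306 to 2374 TPM. Most of that sum was Il2ra at 1488 ± 19.4 TPM. Ctla4 averaged 444 ± 27.4 TPM, Foxp3 289 ± 23.5, Ikzf4 104 ± 7.09 and Ikzf2 13.2 ± 1.99. The 6 T cell markers summed to 2952 to 3069 TPM. Sex-linked transcripts separated the libraries despite the shared donor record: Xist was 172, 145, 0.255 and 0.367 TPM from replicate 1 to 4, and the Y-linked gene Ddx3y was 0.152, 0.0781, 45.1 and 45.0 TPM. No groups were formed from these values, and Cd40lg is the only member on the X chromosome.

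Of the 39 genes, 34 reached 1 TPM in all 4 libraries, against 47.2% of all protein-coding genes and 22.9% of all genes in the tables. At least 100 TPM in every library was reached by 13 of the 39, against 9.09% of protein-coding genes. The median level of the 34 was 44.9 TPM, beside 33.7 for the 10274 protein-coding genes that passed the same threshold. The 39 were chosen with earlier results of these data known, so these comparisons describe the list and not the whole family. Outside the list, 4 of 14 further family genes passed 1 TPM in every library. The 14 ligands summed to 4241 to 4440 TPM, the 19 receptors to 2971 to 3039 and the 6 TRAFs to 468 to 494, so the ligand total lay above the receptor total in every library. A single ligand, Lta, made up 62.6 ± 1.33% of the ligand total.

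**Figure D1:**
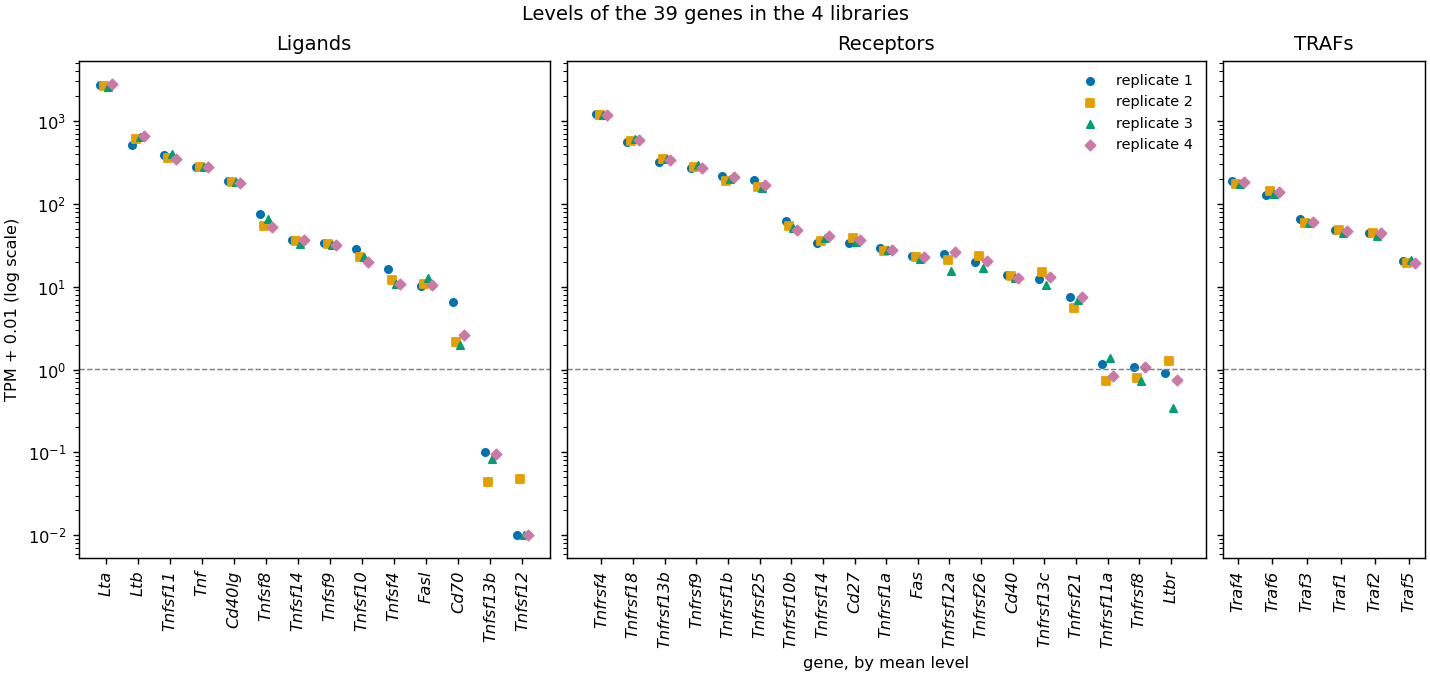
TPM plus 0.01 on a log axis for each of the 39 genes, with ligands, receptors and TRAFs in separate panels, genes ordered by mean and 1 point for each library. The dashed line marks 1 TPM. Lta lies highest at 2594 to 2817 TPM, and 5 genes have at least 1 library below the line.

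Lta and Ltb, the highest ligands, and Tnfrsf4 and Tnfrsf18, the highest receptors, lie in small gene neighbourhoods. This does not hold for Tnfsf11, Tnfrsf13b and Tnfrsf9, at ranks 5, 6 and 7 by mean, which have no other member within 200000 bases. On chromosome 17 of mm10, Ltb (35194439 to 35196320), Tnf (35199381 to 35202007) and Lta (35203165 to 35205351) are separated by 3060 and 1157 bases. On chromosome 4, Tnfrsf4 (156013843 to 156016612) and Tnfrsf18 (156026164 to 156028895) lie 9551 bases apart. The stretches before the starts of these 5 genes are given here because these 5 rank among the 8 highest of the 39. They are RefSeq sequences of GRCm38.p6, read 5′ to 3′ on the strand of the gene, and end before both the RefSeq start and the start of the gene in the deposited tables. Capitals mark matches on either strand to an NF-kappaB site (the decameric kappaB consensus with its central bases left free), TGGAAA (a core bound by NFAT), TGANTCA (AP-1) or TATAAA (the TATA box).
Lta, chr17:35205352-35205601, minus strand: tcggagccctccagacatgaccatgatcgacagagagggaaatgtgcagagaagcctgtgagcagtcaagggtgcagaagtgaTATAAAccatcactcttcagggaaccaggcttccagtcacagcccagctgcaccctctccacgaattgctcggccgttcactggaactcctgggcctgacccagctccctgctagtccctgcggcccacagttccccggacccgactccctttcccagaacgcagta
Tnf, chr17:35202008-35202257, minus strand: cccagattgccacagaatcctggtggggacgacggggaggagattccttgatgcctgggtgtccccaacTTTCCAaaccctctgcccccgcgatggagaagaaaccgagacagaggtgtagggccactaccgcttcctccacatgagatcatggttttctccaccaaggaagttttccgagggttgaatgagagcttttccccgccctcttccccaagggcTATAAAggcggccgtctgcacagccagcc
Ltb, chr17:35194257-35194438, plus strand: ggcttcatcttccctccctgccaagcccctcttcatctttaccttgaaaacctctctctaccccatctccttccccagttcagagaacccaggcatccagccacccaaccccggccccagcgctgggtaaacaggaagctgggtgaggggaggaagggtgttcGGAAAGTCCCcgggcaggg
Tnfrsf4, chr4:156013445-156013694, plus strand: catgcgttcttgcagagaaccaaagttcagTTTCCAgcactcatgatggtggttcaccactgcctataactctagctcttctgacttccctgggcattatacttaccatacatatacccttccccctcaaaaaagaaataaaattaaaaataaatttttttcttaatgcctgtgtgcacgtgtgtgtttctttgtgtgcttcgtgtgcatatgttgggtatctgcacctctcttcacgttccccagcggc
Tnfrsf18, chr4:156026072-156026163, plus strand: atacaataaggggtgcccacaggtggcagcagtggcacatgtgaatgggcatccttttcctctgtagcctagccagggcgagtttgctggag
The Lta stretch holds 1 match, to TATAAA, and the Tnf stretch holds 2, to TGGAAA and TATAAA. The Ltb stretch holds 1 match to the NF-kappaB site, the Tnfrsf4 stretch 1 to TGGAAA, and the Tnfrsf18 stretch of 92 bases none.

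Promoter sequences were found for 31 of the 39 genes, and the 250 bases before the start were searched in each. The NF-kappaB site was present before 5 of the 31, namely Ltb, Tnfrsf25, Tnfrsf9, Traf3 and Traf5, against 4.65% of 32851 promoters of that length. TGGAAA was present before 8, among them Tnf, Tnfrsf4, Tnfrsf9 and Traf1, against 18.6% of promoters. TGANTCA was present before 5, against 6.75%, and TATAAA before 3, namely Lta, Tnf and Tnfsf11, against 12.4%. Tnfrsf9 was the only one of the 31 with the first 3 of these motifs. A match is a description of the letters and does not show binding.

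Lta encodes lymphotoxin alpha, which binds the TNF receptors as a secreted trimer and joins lymphotoxin beta in a membrane complex. It stood at 2746, 2649.9, 2594 and 2817 TPM in replicates 1 to 4, and its range did not overlap that of any other member. Ltb, the membrane partner, stood at 508, 599, 642 and 655 TPM, lowest in replicate 1. Tnf, the founding cytokine of the family, stood at 276, 278, 275 and 281 TPM, the narrowest relative range of the 39 genes at a coefficient of variation of 0.947%. These 3 neighbours therefore differed in level in the same order in every library, Lta above Ltb above Tnf.

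Tnfsf11 encodes RANKL, the ligand that drives osteoclast formation and lymphoid organ development. It was the third most abundant ligand, at 383, 360.5, 397 and 346 TPM. Cd40lg, the helper signal for B cells and dendritic cells, was measured at 188, 185, 182 and 177 TPM, lower in the 2 libraries with Ddx3y. The 4 values of Cd40lg lay within a narrow band of 183 ± 4.71 TPM, and the part of the X chromosome in their order was not tested.

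The 6 next ligands were present at intermediate or low levels. Tnfsf8, which encodes the CD30 ligand, stood at 76.1, 53.4, 65.7 and 52.9 TPM, highest in replicate 1. Tnfsf14, which encodes LIGHT, averaged 35.2 ± 1.77 TPM and Tnfsf9, the ligand of 4-1BB, 32.5 ± 1.07 TPM. Tnfsf10, which encodes the death ligand TRAIL, stood at 28.7, 22.7, 22.9 and 19.8 TPM, again highest in replicate 1. Tnfsf4, the OX40 ligand, showed the same pattern at 16.1, 12.1, 10.8 and 10.7 TPM. Fasl, the ligand that triggers death through Fas, stood at 10.1, 10.7, 12.6 and 10.4 TPM, highest in replicate 3.

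Cd70, the CD27 ligand, was the scarcest ligand that passed 1 TPM in every library. It stood at 6.58, 2.14, 1.97 and 2.60 TPM, from 70, 31, 36 and 33 fragments, with replicate 1 above the range of the others. Tnfsf13b, which encodes the B cell survival factor BAFF, was near the limit of detection, with 8, 4, 11 and 9 fragments and 0.0717 ± 0.0264 TPM, where 3 fragments would give up to 0.0346 TPM. Tnfsf12, which encodes TWEAK, had 1 fragment in replicate 2 and 0 in the others, against up to 0.157 TPM for 3 fragments. Its level is uncertain, because 48.3% of its exon bases are shared with the read-through gene Tnfsfm13 on the same strand and fragments there were counted for neither gene. Tnfsfm13 itself is not a member.

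Receptors without a death domain included the most abundant receptor. Tnfrsf4, which encodes OX40, stood at 1210.3, 1174, 1183 and 1193 TPM and made up 39.5 ± 0.27% of the receptor total. Its neighbour Tnfrsf18, which encodes GITR, stood at 564, 565, 599 and 593 TPM. Together with Tnfrsf13b, these 2 costimulatory receptors led the receptor list in all 4 libraries.

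Tnfrsf13b encodes TACI, a receptor for BAFF and APRIL best known from B cells. It stood at 322, 344, 349 and 342 TPM, and 0% of its exon bases were shared with another gene on its strand. Of the 8 B cell markers, 1 reached 1 TPM in all libraries, Cd79b, and the list summed to 3.42 to 4.27 TPM. The B cell markers Ms4a1 and Pax5 averaged 0.0151 and 0.0116 TPM, each with 0 fragments in at least 1 library. Tnfrsf13c, the BAFF receptor, was lower at 12.3, 15.0, 10.5 and 13.1 TPM. Cd40, a receptor of B cells and antigen-presenting cells, stood at 13.9, 13.4, 12.8 and 12.6 TPM. Among the 9 markers of myeloid and dendritic cells only Cst3 reached 1 TPM in all libraries, at 102 ± 4.23 TPM. That list summed to 98.4 to 108 TPM, nearly all of it Cst3, and Lyz2, Clec9a and Siglech had 0 fragments. The part of B, myeloid and dendritic cells in the levels of these 3 receptors was not tested.

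Tnfrsf9 and Tnfrsf1b, which encode the costimulatory receptors 4-1BB and TNFR2, were also abundant. Tnfrsf9 stood at 269, 279, 294 and 271 TPM, overlapping the range of Tnf. Tnfrsf1b stood at 218, 191, 199 and 209 TPM. The other receptors without a death domain were lower than these. Tnfrsf14, the LIGHT receptor HVEM, averaged 37.0 ± 2.91 TPM and Cd27, a costimulatory receptor of naive T cells, 35.7 ± 2.07 TPM. Tnfrsf12a, the TWEAK receptor Fn14, stood at 24.6, 21.1, 15.5 and 26.0 TPM, lowest in replicate 3. Tnfrsf26, a mouse family member, stood at 19.9, 23.5, 16.8 and 20.2 TPM, also lowest in replicate 3.

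A group of 3 receptors was close to or below 1 TPM. Tnfrsf11a, which encodes RANK, stood at 1.16, 0.717, 1.35 and 0.821 TPM, and Tnfrsf8, which encodes CD30, at 1.05, 0.788, 0.708 and 1.07 TPM. Ltbr, the lymphotoxin beta receptor, stood at 0.908, 1.26, 0.334 and 0.733 TPM, from 27, 51, 17 and 26 fragments. These 3 are the members just below the threshold, and Cd70 with a lowest value of 1.97 TPM is the member just above it. Of these, 2 have more abundant neighbours: on chromosome 6 Ltbr lies between Cd27 and Tnfrsf1a, 69560 and 35476 bases away, and on chromosome 4 Tnfrsf8 lies 20266 bases from Tnfrsf1b at 204 ± 11.6 TPM.

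All 5 death-domain receptors passed 1 TPM, and their sum of 263 to 315 TPM was below that of Tnfrsf18 alone in every library. Tnfrsf25, which encodes DR3, stood at 194, 159, 155 and 167 TPM, highest in replicate 1. Tnfrsf10b, the TRAIL receptor DR5, stood at 61.3, 54.2, 51.2 and 48.8 TPM. The remaining 3 were Tnfrsf1a, which encodes TNFR1, at 27.9 ± 0.828 TPM, Fas at 22.6 ± 0.662 TPM and Tnfrsf21, which encodes DR6, at 6.81 ± 0.931 TPM. Tnfrsf25 thus held the larger part of the death-domain receptor transcripts.

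The TRAFs formed 3 tiers by level. Traf4, the family member best known from epithelia and development, stood at 186, 173, 172 and 184 TPM. Traf6, the ubiquitin ligase that also serves interleukin 1 and Toll-like receptors, stood at 129, 142, 132 and 140.2 TPM. Both were above the middle tier in every library. Traf3, which restrains alternative NF-kappaB signalling, averaged 60.8 ± 3.70 TPM, Traf1, itself an NF-kappaB target, 46.6 ± 1.78 TPM and Traf2, a core adaptor of TNF receptors, 43.2 ± 1.55 TPM. Traf5, a close relative of Traf2 in function, was lowest at 20.3, 19.2, 21.2 and 19.2 TPM. The order within the middle tier depends on the exon length used: with the length of the principal transcript, an alternative chosen after seeing the data, Traf1 was 83.3 TPM, Traf2 50.5, Traf3 44.1 and Traf5 32.3.

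Across all 39 genes ordered by mean, 23 of 38 neighbouring pairs had ranges that overlapped between libraries. Ltb and Tnfrsf18 overlapped, as did Tnfsf11 and Tnfrsf13b, Tnfrsf9 and Tnf, and Cd40lg, Traf4 and Tnfrsf25 in turn. From Tnfsf10 down to Traf5 each gene overlapped the next, although Fas, at 21.6 to 23.2 TPM, lay wholly above Traf5, at 19.2 to 21.2 TPM. Clear steps lay between Lta and Tnfrsf4, between Tnfrsf4 and Ltb, and between Traf6 and Tnfsf8.

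Ligands and their receptors were set against each other in 18 textbook pairs, as the log2 ratio of receptor to ligand after adding 0.1 TPM to each. The receptor was higher in all 4 libraries in 8 pairs, the ligand in 9, and 1 pair was mixed. An exact permutation test that flips signs, taken as two-sided, gave p = 0.13 for each of the 17 pairs with 1 direction, the smallest that 4 libraries allow, and 0.132 after Benjamini-Hochberg adjustment over the 18 pairs. These ratios compare transcripts within the same library. They do not show whether the same cells hold both, and say nothing about protein at the surface.

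Receptor-rich pairs included those of the costimulatory receptors OX40 and 4-1BB, but not those of TNFR2. GITR was not part of any pair. Tnfrsf4 exceeded Tnfsf4 by 6.59 ± 0.26 and Tnfrsf9 exceeded Tnfsf9 by 3.09 ± 0.10 on the log2 scale. Tnfrsf13b exceeded Tnfsf13b by 10.96 ± 0.27 and Tnfrsf13c exceeded the same ligand by 6.23 ± 0.40, both with the ligand near 0. These 2 ratios depend on the added value and were 8.31 and 3.67 with 1 TPM added. Cd27 exceeded Cd70 by 2.33 in replicate 1 and by 4.10, 4.06 and 3.76 in replicates 2 to 4. The TRAIL and Fas ligand pairs were closer to balance. Tnfrsf10b was above Tnfsf10 by 1.20 ± 0.09 and Fas above Fasl by 1.04 ± 0.19. The eighth receptor-rich pair, Tnfrsf12a and Tnfsf12, rests on the uncertain count of Tnfsf12.

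Among the ligand-rich pairs, 4 had a receptor near 1 TPM. Their log2 ratio of receptor to ligand was -9.48 ± 0.79 for Ltbr and Ltb, -8.42 ± 0.31 for Tnfrsf11a and Tnfsf11, -5.95 ± 0.35 for Tnfrsf8 and Tnfsf8 and -5.40 ± 0.65 for Ltbr and Tnfsf14. Both TNF receptors were below Lta, with -6.59 ± 0.05 for Tnfrsf1a, the third most ligand-rich pair, and -3.73 ± 0.06 for Tnfrsf1b. Against Tnf the ratio was -3.31 ± 0.05 for Tnfrsf1a and -0.44 ± 0.08 for Tnfrsf1b, and the last of these reversed to 0.78 when counts were not divided by exon length. Cd40 was below Cd40lg by a ratio of -3.79 ± 0.03. The mixed pair was Tnfrsf14 and Tnfsf14, at -0.10, 0.00, 0.23 and 0.14 in replicates 1 to 4, a difference within the spread (p = 0.375, exact sign-flip permutation test).

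**Figure D2:**
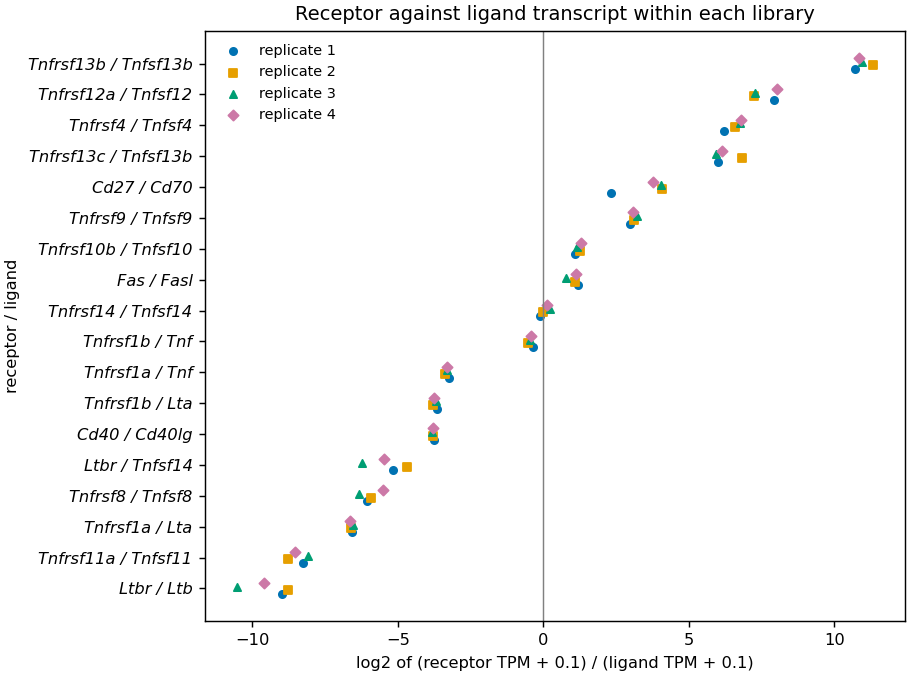
Log2 ratio of receptor to ligand TPM, each with 0.1 TPM added, for 18 pairs, with 1 point for each library and the line at 0 marking equal levels. Tnfrsf13b over Tnfsf13b lies highest at a mean of 10.96 and Ltbr over Ltb lowest at -9.48.

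No member was called when each replicate was tested against the other 3. In edgeR's quasi-likelihood test 37 of the 39 genes passed the filter on low counts, and 0 of them had a Benjamini-Hochberg adjusted p under 0.05 in any of the 4 comparisons. Across all 12917 genes tested, 0.0697% were called for replicate 1 (0.0465% higher and 0.0232% lower), 0.0232%, all lower, for replicate 3 and 0% for replicates 2 and 4. At an unadjusted p under 0.05 the members numbered 8 for replicate 1, where 9.31% of all genes passed, then 2, 3 and 2 for replicates 2 to 4, where 6.78%, 2.31% and 2.49% passed. DESeq2's Wald test called 1 member, Ltb, for replicate 1 and 0 for the others, beside 0.124%, 0.147%, 0.0619% and 0% of all genes for replicates 1 to 4.

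Members with the smallest p in replicate 1 were Tnfsf8, Tnfrsf25, Tnfsf10, Ltb and Cd70. Of the 34 genes at 1 TPM or more, 17 were highest in replicate 1 and 14 lowest in replicate 3, where 30.1% and 22.9% of all 11593 genes at that level were highest and lowest. Replicate 1 exceeded the mean of the others by 0.40 (SE 0.10) for Tnfsf8, 0.27 (SE 0.07) for Tnfrsf25, 0.39 (SE 0.10) for Tnfsf10 and 1.55 (SE 0.43) for Cd70 on the log2 scale, and Ltb differed by -0.32 (SE 0.09). None of these 5 was called in edgeR with all 4 libraries. Each of the 5 had its replicate 1 value outside the range of the other 3 libraries, which follows largely from choosing them by small p. Without replicate 4, the adjusted p in edgeR became 0.00629 for Tnfsf8, 0.00474 for Tnfrsf25, 0.018 for Ltb and 0.033 for Cd70, and 2.59% of all genes tested were called. Without replicate 2 it became 0.01 for Tnfsf8, 0.0131 for Tnfsf10 and 0.000736 for Ltb, with 0.861% of all genes called, and without replicate 3 it was 0.00211 for Tnfsf8 only, with 0.178% called. The 9 genes called for replicate 1 over the whole table included the mitochondrial ribosomal RNA and transcripts often seen to vary with ribosomal RNA content: Gm26917 by 0.95, Gm24187 by 0.74, Gm42418 by 0.59, Lars2 by 0.55 and mt-Rnr1 by -0.46 on the log2 scale. The rest of that list was Bnip3 by -0.75, Rxra by 0.42, Rrp9 by 0.35 and Eef1a1 by -0.16. The part of any of these genes in the shifts of the members was not tested. With replicate 2 left out, replicate 1, with Xist, was set only against replicates 3 and 4, with Ddx3y. Library and sex cannot be told apart in that comparison.

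**Figure D3:**
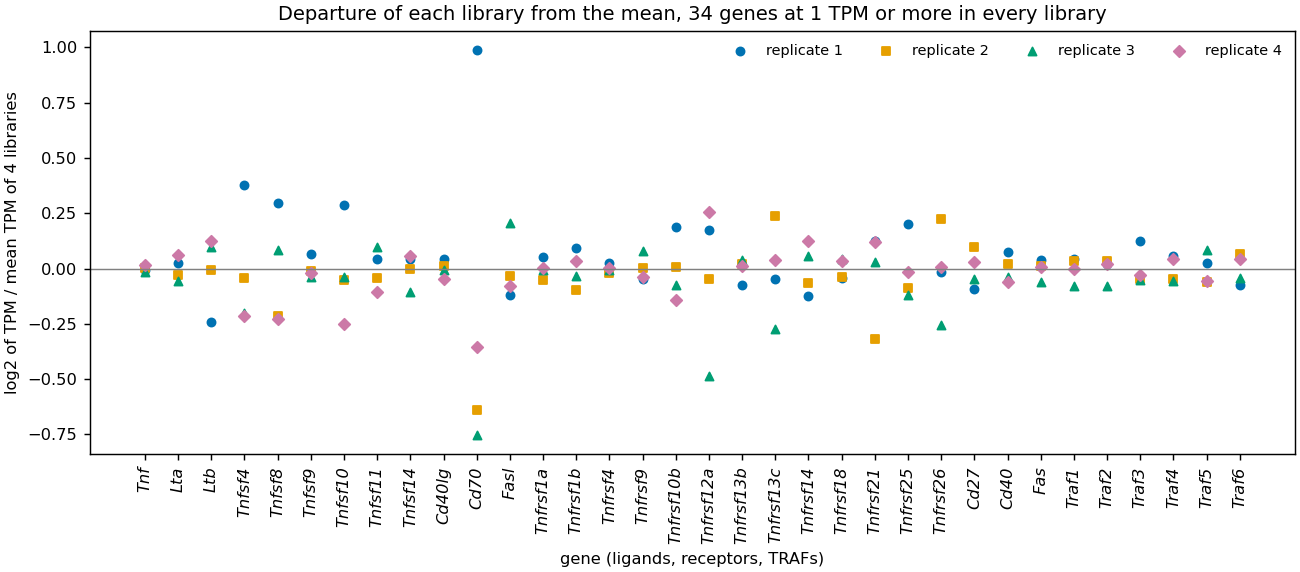
Log2 of each library's TPM over the mean of the 4 libraries, for the 34 genes at 1 TPM or more in every library, in the order ligands, receptors, TRAFs. Replicate 1 stands high for Cd70, Tnfsf4, Tnfsf8 and Tnfsf10 and low for Ltb, and replicate 3 stands low for Tnfrsf12a.

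Spread between libraries was compared with that of all genes. The median biological coefficient of variation of the 37 tested members was 0.0745, beside 0.0734 for all genes tested, and 19 of the 37 lay above that median. Cd70 had the largest value at 0.328, followed by Ltbr at 0.305 and Tnfrsf8 at 0.229, and these 3 had between 17 and 70 fragments in each library. Without replicate 1 Cd70 was 0.239, at the 87.1 percentile, below Ltbr at 0.287. Tnf had the smallest at 0.0481, at the 0.116 percentile of all genes tested, followed by Traf1 at 0.0506 and Traf4 at 0.0526. These ranks rest on single libraries: without replicate 1 Tnf was 0.0565, at the 23.1 percentile, and Tnfrsf25 was lowest at 0.0476, and without replicate 2 Traf1 at 0.0486 was below Tnf at 0.0507. Lta, the most abundant member, lay near the middle at 0.0754.

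**Figure D4:**
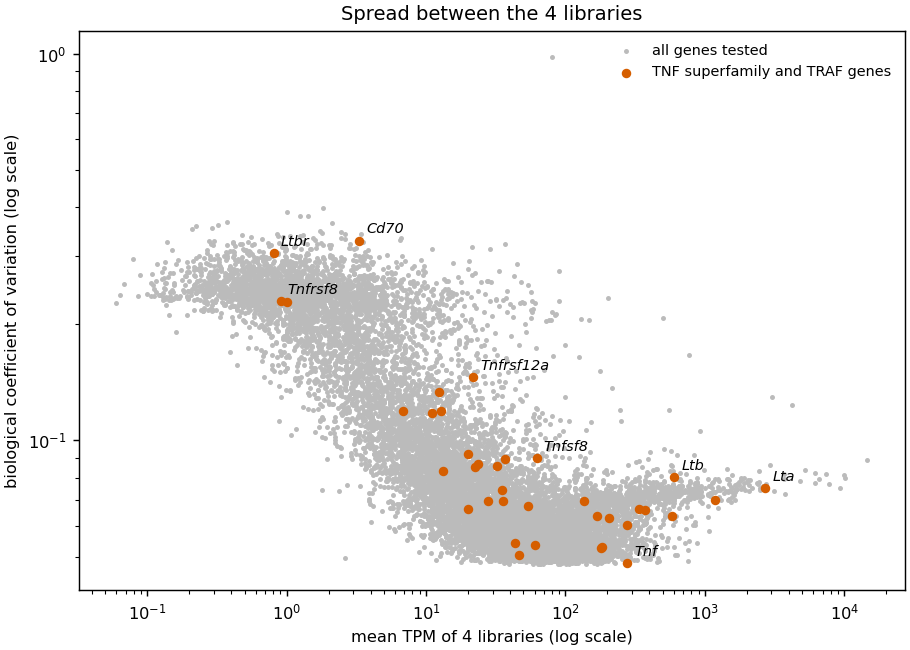
Biological coefficient of variation from edgeR against mean TPM, both on log axes, for all 12917 genes tested in grey and the 37 tested members in orange. Cd70 at 0.328 and Ltbr at 0.305 lie at the upper edge and Tnf at 0.0481 at the lower edge.

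Downstream of the receptors the signalling genes were present as a whole. All 40 genes of the signalling list passed 1 TPM in every library, against 47.2% of all protein-coding genes. Their median was 55.7 TPM, and 11 were at 100 TPM or more in every library, against 9.09%. This list too was chosen with earlier results of these data known. The 5 highest were the inhibitor Nfkbia at 684 ± 30.3 TPM, the NF-kappaB precursors Nfkb2 at 486 ± 37.2 and Nfkb1 at 340.5 ± 15.7, the linear-ubiquitin protease Otulin at 210.5 ± 16.1 and the ABIN1 gene Tnip1 at 188 ± 17.6. Among death adaptors, Casp8, the initiator caspase, stood at 173 ± 4.23 TPM, above Fadd at 22.6 ± 1.96, Tradd at 45.9 ± 2.11 and Cflar, the FLIP inhibitor, at 38.2 ± 1.58. The list's lowest gene was Mlkl, the necroptosis effector, at 3.33 ± 0.871 TPM. No gene of this list was called in any replicate against the other 3 (edgeR, adjusted p under 0.05).

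Of 14 further family genes outside the 39, 4 passed 1 TPM in all libraries, against 47.2% of all protein-coding genes. These were Traf7 at 109 ± 4.8 TPM, Relt at 43.6 ± 2.71, Tnfrsf22 at 16.7 ± 0.441 and the decoy receptor Tnfrsf11b, which encodes osteoprotegerin, at 3.13 ± 0.786. The fifth highest, Tnfrsf23, stood at 0.938 ± 0.454 TPM. Tnfsf18, the ligand of GITR, had 0 fragments in all 4 libraries while Tnfrsf18 stood at 580.2 ± 18.2 TPM, and Tnfsf15, the ligand of DR3, averaged 0.379 ± 0.0975 TPM while Tnfrsf25 stood at 169 ± 17.5 TPM. Edar and Tnfrsf17 also had 0 fragments.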

How the data were processed

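RNA of 4 regulatory T cell biosamples was sequenced, and the deposited gene counts were made with featureCounts 1.4.6-p4 on mm10 with GENCODE M13, per the file headers. Those headers record paired fragments, reverse-stranded counting of exons, and no request for fragments that align to several places; an aligner version was not given in the sources used here. Symbols came from GENCODE M21 and matched 50376 of 50600 genes. The value column, described as TPM when the genes were chosen, holds counts, so TPM was derived by dividing them by summed exon length. A gene passed at 1 TPM in all 4 libraries, and 3 counts served as the detection floor, which covers counting error only. Each replicate was tested against the other 3 with edgeR 4.0.16 (TMM, filterByExpr, quasi-likelihood test, Benjamini-Hochberg adjustment at 0.05), which assumes that the lone library varies like the rest and compares libraries, not conditions. DESeq2 1.42.0 was an alternative. The edgeR step was tested on simulated data. The members, gene lists, pairs and motifs were chosen with earlier results of these data known. All 39 members are named; of other lists, the 5 highest, any called gene, and genes chosen after their values were seen (Casp8, Fadd, Tradd, Cflar, Mlkl, Tnfsf15, Tnfsf18, Edar, Tnfrsf17).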

Additional observations from a re-analysis of the deposited data

Results flagged for a closer look

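Of 49 genes whose 4 libraries were screened for a value far from the rest, 4 were picked out, all among the 39 members, and chance alone picks about 1 in 20. Cd70 in replicate 1 stood at 6.58 TPM against 1.97 to 2.60 in the others, and Traf3 in replicate 1 at 66.3 TPM against 58.6 to 59.5. Traf2 in replicate 3 stood at 40.9 TPM against 43.8 to 44.3. Tnfsf12 in replicate 2 stood at 0.0383 TPM against 0 in the others, which is a single fragment.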

How the results depend on the processing

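Of the 39 genes, 33 to 36 passed under the other thresholds and units tried, and 34 under each omission of a replicate. With the principal transcript length, all expressed genes shifted by a median of -0.26 on the log2 scale; relative to that, Traf1 gained 1.10 and Traf5 0.96. The number of receptor-rich pairs was 8 or 9 throughout. Of 126 recomputed pair ratios 2 reversed, both without division by length: Tnfrsf1b over Tnf at 0.78 and Tnfrsf14 over Tnfsf14 at -0.61. With 1 TPM added in place of 0.1, ratios with a scarce side shrank: Ltbr over Ltb was -8.40, Tnfrsf11a over Tnfsf11 -7.54, Tnfrsf8 over Tnfsf8 -5.04 and Ltbr over Tnfsf14 -4.35. The edgeR counts over all genes for replicates 1 to 4 became 105, 60, 35 and 16 without the filter on low counts, where genes in few fragments enter, and DESeq2 called 16, 19 and 8 for replicates 1 to 3. Leaving out 1 of the other replicates gave 23 to 341 for replicate 1, 3 to 52 for replicate 2, 16 to 21 for replicate 3 and 2 to 9 for replicate 4. Among members, replicate 1 gave 2 calls without the filter, 1 with DESeq2 and 1 to 4 with a replicate left out, and the other replicates gave 0 under every alternative. The cause was not tested. Where the replicate left out shared Xist or Ddx3y with the lone one, library and sex cannot be told apart. The median coefficient of variation of all genes tested became 0.25 without the filter, that of the members 0.0863, and 5 of 39 members lay above the median of all genes. No paired analysis was possible because there is 1 group.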
